A study of Canis lupus familiaris with 8 samples.

Results

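FCER1G+ GZMB+ CD8 cells were blood TCRαβ+ T cells that held at least 1 unique molecular identifier (UMI, a count of 1 captured RNA molecule) of each of CD8A, FCER1G and GZMB, held no CD4 UMI and carried no TRAV9-11/TRAJ28 receptor in the V(D)J data. Of 31909 cells that passed the quality limits, 6427 had CD8A and no CD4, and 621 of these were FCER1G+ GZMB+. These 621 cells were 9.66% of the CD8A+ CD4- cells and 1.95% of all kept cells. FCER1G, GZMB, CD8A and CD4 chose the cells, so their levels are given as a description with no test. The other 5806 CD8A+ CD4- cells were divided by the same transcripts into 2716 GZMB+ FCER1G- cells, 426 FCER1G+ GZMB- cells, 1989 cells with neither transcript, 361 TRAV9-11/TRAJ28 cells that had FCER1G and GZMB, and 314 TRAV9-11/TRAJ28 cells that lacked at least FCER1G or GZMB.

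The cells came from 4 healthy, routinely vaccinated Beagles: dog 1, a female of 5 years, dogs 2 and 3, males of 7 years, and dog 4, a male of 9 years. TCRαβ+ T cells were sorted from blood mononuclear cells and then cryopreserved, and 1 droplet-based 5' gene expression library and 1 V(D)J library were made per dog. The expression libraries held 7428, 8873, 8402 and 8422 barcodes and 26904346, 35661623, 32637367 and 32773374 UMIs for dogs 1 to 4. The dog was the replicate throughout (n = 4), each group compared is therefore a set of cells from the same 4 animals, and neither age nor sex was tested.

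FCER1G encodes the Fc receptor gamma chain, a signalling adaptor with an immunoreceptor tyrosine-based activation motif that is best known from mast cells, myeloid cells and natural killer (NK) cells, where it couples Fc receptors and natural cytotoxicity receptors to the kinases SYK and ZAP70. Most conventional T cells signal through the CD3 and zeta chains and express little FCER1G, and T cells that do express it have been described as innate-like. Granzyme B, the product of GZMB, is a serine protease that cytotoxic lymphocytes release together with the pore-forming protein perforin (PRF1). A T cell receptor is made of an alpha and a beta chain (TRA and TRB), each joined from a V and a J segment, so cells that share a TRB junction sequence are taken as members of 1 clone. Clone sizes count cells with a single TRB record.

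The receptors of the largest clones among these cells are shown because much of what follows differs from clone to clone. Each junction was read 5' to 3' from the deposited V(D)J records, in lower case, with the bases that neither the V nor the J alignment covered in capitals. A junction without capitals had no such bases. Among cells with a single TRB, the TRB junctions of the largest clone of each dog were these:
Dog 1 TRBV16/TRBJ2-1, 10 cells: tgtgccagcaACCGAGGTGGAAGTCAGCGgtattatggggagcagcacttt
Dog 2 TRBV26/TRBJ1-6, 12 cells: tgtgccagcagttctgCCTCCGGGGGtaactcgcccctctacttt
Dog 3 TRBV25/TRBJ2-5, 14 cells: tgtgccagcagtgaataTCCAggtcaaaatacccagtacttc
Dog 4 TRBV1/TRBJ2-3, 77 cells: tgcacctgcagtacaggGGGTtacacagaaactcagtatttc
The second clone of dog 4 had 24 FCER1G+ GZMB+ cells and 2 alpha chains, found in 22 and 21 of them:
Dog 4 TRBV3-1/TRBJ2-1: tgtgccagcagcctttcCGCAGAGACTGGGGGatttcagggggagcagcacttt
Dog 4 TRAV24/TRAJ38: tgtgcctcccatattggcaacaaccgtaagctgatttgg
Dog 4 TRAV9-7/TRAJ45: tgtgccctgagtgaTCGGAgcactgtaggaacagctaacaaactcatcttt
In dog 2, with cells of more than 1 TRB included, 31 cells carried either or both of 2 TRB junctions, 21 of them both, and all 30 with an alpha chain used TRAV24/TRAJ48, with 1 of 2 junctions:
Dog 2 TRBV10/TRBJ1-6, 30 cells: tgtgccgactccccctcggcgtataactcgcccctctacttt
Dog 2 TRBV1/TRBJ2-6, 22 cells: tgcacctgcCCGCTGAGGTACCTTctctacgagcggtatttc
Dog 2 TRAV24/TRAJ48, 17 cells: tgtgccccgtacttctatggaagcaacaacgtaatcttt
Dog 2 TRAV24/TRAJ48, 13 cells: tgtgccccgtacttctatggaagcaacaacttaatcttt

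The limit set on TRAV9-11/TRAJ28 did not remove every receptor of that kind. Among the FCER1G+ GZMB+ cells, 36 shared a TRB junction with TRAV9-11/TRAJ28 cells of their dog, and another 29 had an alpha chain of a different V gene of the TRAV9 family joined to TRAJ28 with the same junction length of 16 codons. Together these were 65 of the 621 cells (10.5%), with 12, 23, 29 and 1 in dogs 1 to 4. The most frequent of these junctions in dog 3 follow the TRAV9-11/TRAJ28 junction seen in 88 cells of the comparison class in that dog:
Dog 3 TRAV9-11/TRAJ28: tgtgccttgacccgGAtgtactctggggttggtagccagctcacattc
Dog 3 TRAV9-6/TRAJ28, 5 cells: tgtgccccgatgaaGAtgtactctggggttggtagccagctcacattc
Dog 3 TRAV9-5/TRAJ28, 3 cells: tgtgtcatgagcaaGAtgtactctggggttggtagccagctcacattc
From the GA in capitals onward the 3 junctions were the same. With these 65 cells left out, 290 genes differed between the FCER1G+ GZMB+ cells and the other CD8A+ CD4- cells, against 343 with them.

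The libraries of dogs 1 and 4 had receptors in common. They shared 59 TRB rearrangements identical in V gene, J gene and junction nucleotides, against 0 or 1 for every other pair of dogs. The shared rearrangements were found in 73 of 5421 kept cells with a TRB in dog 1 and in 1089 of 6225 in dog 4. Among all CD8A+ CD4- cells with a TRB they were found in 28 of 598 in dog 1 and in 549 of 1677 in dog 4. Among the FCER1G+ GZMB+ cells with a TRB they were found in 4 of 47 in dog 1 and in 108 of 226 in dog 4. Between 87 and 120 cell barcodes occurred in both libraries of a pair of dogs, but no barcode came with the same TRB in 2 dogs. Without the dog 1 cells that carried a TRB of dog 4, 329 genes differed in the comparison with all other CD8A+ CD4- cells, and without dog 1 altogether 257 did. Without dog 4, 286 differed.

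The share of FCER1G+ GZMB+ cells varied between the dogs. They were 57 of 691 CD8A+ CD4- cells (8.25%; exact binomial 95% interval 6.31 to 10.6) in dog 1, 151 of 1427 (10.6%; 9.03 to 12.3) in dog 2, 120 of 2280 (5.26%; 4.38 to 6.26) in dog 3 and 293 of 2029 (14.4%; 12.9 to 16.0) in dog 4. The mean was 9.63% ± 3.87 (SD, n = 4), and the interval of dog 4 lay above those of the other dogs. These intervals cover counting error alone. The FCER1G+ GZMB- cells followed the same order at 3.18%, 6.94%, 2.41% and 12.3% in dogs 1 to 4. The GZMB+ FCER1G- cells were lowest in dog 1 (26.5%) and highest in dog 3 (50.2%).

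**Figure D1:**
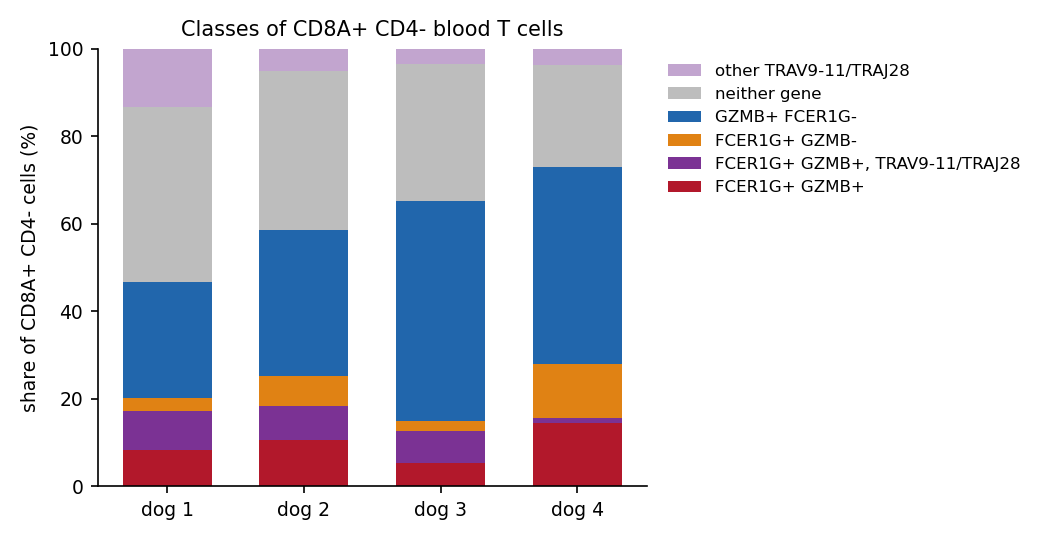
Share of CD8A+ CD4- cells (percent, vertical axis) in each of 6 classes set by FCER1G, GZMB and the TRAV9-11/TRAJ28 receptor, as 1 stacked bar per dog (horizontal axis). The FCER1G+ GZMB+ cells made up 5.26% of the bar of dog 3 and 14.4% of the bar of dog 4.

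Whether a cell fell inside these limits depended on few molecules. The cells had a median of 6 FCER1G, 4 GZMB and 6 CD8A UMIs, and 69 of the 621 (11.1%) had a single FCER1G UMI, 125 (20.1%) a single GZMB UMI and 48 (7.73%) a single CD8A UMI. Cells just outside had 0 of one of them. Requiring at least 2 UMIs of FCER1G and of GZMB lowered the mean share to 6.92%. In CD4+ CD8A- cells of the same libraries, which served as the background, FCER1G was seen in 0.352% ± 0.174, GZMB in 2.35% ± 0.988 and both in 0.0530% ± 0.0429 of cells (mean ± SD, n = 4). In the CD8A+ CD4- cells the corresponding shares were 23.0% ± 5.56, 59.6% ± 5.47 and 15.9% ± 2.46, with TRAV9-11/TRAJ28 cells included. Median depth was 3618 UMIs in the FCER1G+ GZMB+ cells, 3738 in the other CD8A+ CD4- cells and between 3747 and 4092 per dog in the CD4+ CD8A- cells.

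Most markers of monocytes, neutrophils, mast cells and basophils had no UMI, while S100A8 and several NK cell genes were present. Of 12 monocyte and neutrophil genes named in the files, 10 had no UMI in any of the 621 cells, among them CSF1R, CSF3R, SPI1, LYZ and FCGR1A, and CD68 had 2 UMIs. S100A8 made up nearly all of this list at 1324 CPM (counts scaled to a common total of 1000000 UMIs) and was lower than in the other CD8A+ CD4- cells (1798 CPM, UMIs of all dogs summed). All 5 mast cell and basophil genes (MS4A2, FCER1A, CPA3, HDC and GATA2) and all 3 red cell genes were at 0, which allows at most 1.13 CPM by a limit of 3 UMIs. Among 4 NK cell genes, KLRF1 was at 0, NCR1 stood at 39.6 CPM against 13.4 CPM, and SH2D1B, an adaptor of SLAM family receptors, stood at 11.7 CPM against 0.951 CPM. KLRD1 was the most abundant of the 4 (917 against 551 CPM). The summed B cell list was 15.5 CPM against 5.75 CPM, with CD79B, PAX5 and CD22 at 0 and BANK1 the most abundant gene at 11.3 against 1.60 CPM. Plasma cell, γδ T cell, platelet and dendritic cell lists summed to 7.17, 67.1, 1.51 and 1.13 CPM against 6.14, 70.9, 1.12 and 0.432 CPM. In the γδ T cell list GATA3 accounted for 65.6 of the 67.1 CPM. Of the 621 cells, 78.4% ± 3.68 had a TRA or TRB record. No doublet caller was run, and leaving out cells with more than 1 TRB gave 351 differing genes in place of 343.

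The first comparison asked how these cells differed from all other CD8A+ CD4- cells of the same dogs. Granule genes such as GZMA and PRF1, NK receptors such as NCR1 and CD160, and the adaptor LAT2 were among the genes that rose, and naive and memory genes such as CCR7 and IL7R, the costimulatory receptor CD28 and the adaptor LAT were among those that fell. UMIs were summed per dog and class, and edgeR's quasi-likelihood test with the dog as a block called 343 of 8233 genes at an adjusted p below 0.05 (4.17% of the genes tested), 166 higher (2.02%) and 177 lower (2.15%). The median log2 fold change of all tested genes was 0.00. In the lists below, genes are counted against those that passed the filter on low counts.

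Of 14 cytotoxic effector genes tested, 5 rose and 1 fell, with a median log2 fold change of 0.02. Granzyme A (GZMA), a tryptase-like granule protease, was 472, 471, 231 and 817 CPM in dogs 1 to 4 in the FCER1G+ GZMB+ cells and 172, 125, 172 and 301 CPM in the other cells (log2 fold change 1.30, SE 0.15, adjusted p = 3.75e-05, edgeR). It was higher in each dog, although dog 3 lay below the dog 4 value of the other cells. Perforin (PRF1) was 152, 233, 310.2 and 369 CPM against 87.9, 117, 164 and 188 CPM (log2 fold change 0.90, SE 0.08, adjusted p = 2.95e-06), again higher in each dog with overlapping groups. Cathepsin W (CTSW) and cystatin F (CST7), a protease and a protease inhibitor of cytotoxic granules, reached 583 ± 82.0 against 361 ± 42.5 CPM (log2 fold change 0.64) and 171 ± 14.9 against 103 ± 8.03 CPM (0.68), and neither gene's groups overlapped. FAS ligand (FASLG), which triggers death receptors on target cells, rose by 0.73 on the log2 scale. Granzyme K (GZMK) went the other way at 211, 685, 456 and 349 CPM against 431, 852, 892 and 659 CPM (log2 fold change -0.81, SE 0.10, adjusted p = 5.82e-05), lower within each dog. ZEB2, a transcription factor of effector T cells and NK cells, was 70.2 ± 22.7 against 53.5 ± 22.7 CPM and did not pass (log2 fold change 0.35, adjusted p = 0.258). Of the chemokines, CCL5 rose (4749 ± 1923 against 2463 ± 1557 CPM, log2 fold change 1.03), while CCL4 did not pass (1086 ± 382 against 881 ± 344 CPM, 0.24, adjusted p = 0.489) and passed without dog 3 (log2 fold change 0.47, adjusted p = 0.0213). For the genes that chose the cells, FCER1G stood at 1494 ± 180.1 against 216 ± 62.1 CPM and GZMB at 1746 ± 163 against 1337 ± 327 CPM. The other cells include classes that lack GZMB by definition. With UMIs of all dogs summed, GZMB was 1782 CPM in the FCER1G+ GZMB+ cells and 2612 CPM in the GZMB+ FCER1G- cells.

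**Figure D2:**
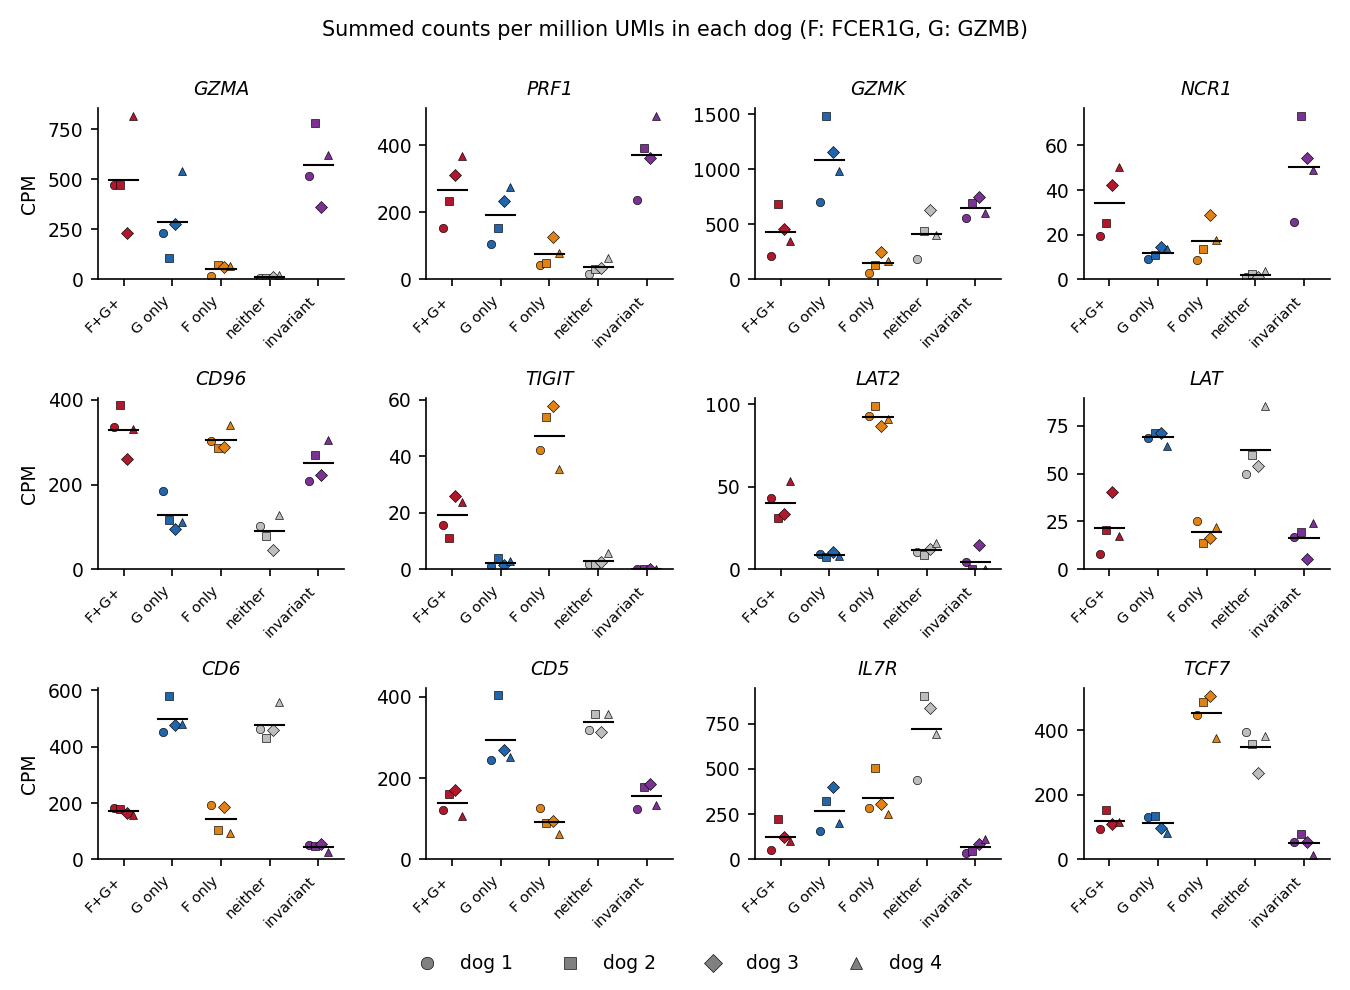
Levels of 12 genes (CPM, vertical axes, each with its own scale starting at 0) in 5 classes of CD8A+ CD4- cells (horizontal axis), with 1 point per dog and a bar at the mean. Mean GZMA and PRF1 are 498 and 266 CPM in the FCER1G+ GZMB+ cells and 53.9 and 74.6 CPM in the FCER1G+ GZMB- cells, CD6 is highest in the GZMB+ FCER1G- cells (497 CPM), and TIGIT is at 0 in the TRAV9-11/TRAJ28 cells of every dog.

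NK receptors and their adaptors rose in 7 of 13 tested genes and fell in 1 (median log2 fold change 0.47). NCR1, the activating receptor NKp46 that pairs with the Fc receptor gamma chain, was 19.5, 25.0, 42.5 and 50.3 CPM in dogs 1 to 4 against 10.1, 15.9, 13.8 and 12.3 CPM (log2 fold change 1.46, SE 0.24, adjusted p = 0.000937). All values of the FCER1G+ GZMB+ cells lay above all others, but without dog 4 the gene missed the threshold (log2 fold change 1.08, adjusted p = 0.0555). CD160, a glycolipid-anchored receptor for HVEM and MHC class I, was 275 ± 99.1 against 128 ± 19.6 CPM (log2 fold change 0.99, SE 0.11, adjusted p = 2.42e-05), and KLRD1 (CD94), the partner chain of NKG2 receptors, was 859.9 ± 129 against 516 ± 122 CPM (log2 fold change 0.71, SE 0.09, adjusted p = 6.63e-05). The groups did not overlap in either. CRTAM, an adhesion receptor of activated cytotoxic cells, rose by 1.15 on the log2 scale, and smaller rises were seen for CD244 (0.63), NCR3 (0.49) and SLAMF7 (0.47). These 3 calls were lost without single dogs, CD244 without dog 2 (log2 fold change 0.47, adjusted p = 0.167), dog 1 (adjusted p = 0.0549) or dog 3 (0.0608), NCR3 without dog 2 (log2 fold change 0.34, adjusted p = 0.165) or dog 3 (0.0875), and SLAMF7 without dog 2 (log2 fold change 0.34, adjusted p = 0.196) or dog 4 (0.0744). CD226, the activating receptor DNAM-1, fell by 0.62 on the log2 scale and was not called without dog 4 (log2 fold change -0.45, adjusted p = 0.104). Of the receptors that bind the same ligand family as CD226, TIGIT and CD96 rose, TIGIT to 19.1 ± 7.01 against 5.46 ± 2.71 CPM (log2 fold change 1.69, SE 0.34, adjusted p = 0.00567) and CD96 to 329 ± 52.3 against 136 ± 30.9 CPM (log2 fold change 1.25, SE 0.09, adjusted p = 2.43e-07). In both the groups did not overlap. CTLA4, the inhibitory counterpart of CD28, was 0, 6.25, 3.69 and 14 CPM against 31.9, 56.0, 48.2 and 31.7 CPM (log2 fold change -2.30, SE 0.32, adjusted p = 0.000227), lower in each dog. Thus 2 of 5 tested inhibitory receptors rose and 1 fell.

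Among 13 genes of proximal receptor signalling 5 rose and 3 fell (median 0.17). LAT2, an adaptor related to LAT that is known from B cells, NK cells and mast cells, was 42.9, 31.3, 33.2 and 53.6 CPM against 13.2, 14.6, 13.5 and 23.4 CPM (log2 fold change 1.22, SE 0.18, adjusted p = 0.000432), whereas LAT itself, the scaffold of the T cell receptor signal, was 7.81, 20.3, 40.6 and 17.3 CPM against 47.0, 55.3, 57.6 and 62.0 CPM (log2 fold change -1.42, SE 0.21, adjusted p = 0.000336). The groups were separate for both, in opposite directions. The phospholipases showed the same contrast: PLCG2, the form used by B cells and NK cells, rose by 1.0 on the log2 scale and PLCG1, the form used by T cells, fell by 0.74. TXK, a kinase of the TEC family, was higher (109 ± 13.1 against 56.9 ± 18.3 CPM, log2 fold change 0.98). The call of PLCG1 was lost without dog 4 (log2 fold change -0.66, adjusted p = 0.109) or dog 2 (adjusted p = 0.0642). The phosphatases PTPN6 (SHP-1) and INPP5D (SHIP1) rose by 0.53 and 0.36, INPP5D not without dog 2 (log2 fold change 0.37, adjusted p = 0.0776), dog 1 (adjusted p = 0.0678) or dog 3 (0.0503).

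Of 13 genes of the CD3 complex, CD8 and costimulation, 1 rose and 6 fell (median -0.41). CD6, which restrains T cell receptor signals and binds ALCAM, was 183, 179.8, 166 and 157 CPM against 357, 415, 420.0 and 419 CPM (log2 fold change -1.31, SE 0.09, adjusted p = 5.36e-08). CD5, a related scavenger receptor family protein, was 139.8 ± 30.4 against 274 ± 40.3 CPM (log2 fold change -1.04, SE 0.09, adjusted p = 2.79e-06), and CD28, the main costimulatory receptor of naive T cells, was 15.9 ± 8.92 against 51.7 ± 13.8 CPM (log2 fold change -1.63, SE 0.19, adjusted p = 3.75e-05). For each of the 3 genes every dog's FCER1G+ GZMB+ cells lay below every value of the other cells. CD40LG, CD52 and CD27 fell by 2.35, 2.19 and 0.41 on the log2 scale, CD27 not without dog 2 (log2 fold change -0.33, adjusted p = 0.294), dog 1 (adjusted p = 0.126) or dog 3 (0.162). CD7, a surface protein of early T and NK cells, was the gene that rose (630.5 ± 26.4 against 410.4 ± 62.9 CPM, log2 fold change 0.58, SE 0.08, adjusted p = 0.000275).

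Naive and memory genes fell in 8 of 11 tested and rose in none (median -0.87). CCR7, the receptor that guides naive and central memory T cells into lymph nodes, was 0, 20.3, 5.54 and 4.12 CPM against 70.8, 74.8, 76.6 and 23.8 CPM (log2 fold change -2.75, SE 0.28, adjusted p = 1.17e-05). The interleukin-7 receptor gene IL7R was 50.7, 224, 126 and 101 CPM against 262, 551, 533 and 350.5 CPM (log2 fold change -1.80, SE 0.12, adjusted p = 5.36e-08). Both were lower in each dog with no overlap. TCF7, the transcription factor of naive and stem-like T cells, was 118 ± 24.6 against 221 ± 37.4 CPM (log2 fold change -0.90, SE 0.10, adjusted p = 3.44e-05) and LTB, encoding lymphotoxin beta, 629 ± 103 against 1121 ± 183 CPM (log2 fold change -0.87, SE 0.07, adjusted p = 6.00e-07). LEF1 and SATB1 fell by 1.03 and 0.60, but LEF1 was not called without dog 1 (log2 fold change -0.78, adjusted p = 0.0622), dog 2 (adjusted p = 0.105) or dog 3 (0.0654), and SATB1 was not called without any one dog (adjusted p from 0.0502 to 0.117).

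Of 19 transcription factors tested 3 rose and 2 fell (median 0.18). IKZF2 (Helios) was 74.0 ± 21.8 against 35.4 ± 9.72 CPM (log2 fold change 0.98, SE 0.15, adjusted p = 0.000575) with separate groups. EOMES, a T-box factor of effector and memory cells, rose by 0.61 and IRF8, an interferon regulatory factor of myeloid and lymphoid cells, by 1.37, and neither passed without dog 4 (EOMES log2 fold change 0.55, adjusted p = 0.0693, IRF8 log2 fold change 1.20, adjusted p = 0.133). BCL11B, which maintains T cell identity, was 16.4 ± 3.69 against 35.7 ± 1.09 CPM (log2 fold change -1.09, SE 0.19, adjusted p = 0.00227), and ID3 fell by 1.28 but not without dog 4 (log2 fold change -1.10, adjusted p = 0.0725).

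Of 23 trafficking and adhesion genes 1 rose and 2 fell (median -0.03). ITGAM, the integrin CD11b of myeloid and NK cells, was 203, 258, 238 and 598 CPM against 73.1, 70.8, 180.0 and 209 CPM (log2 fold change 1.27, SE 0.16, adjusted p = 0.000108), higher in each dog and highest in dog 4. CXCR3 and ITGA1 fell by 0.86 and 0.93, CXCR3 not without dog 2 (log2 fold change -0.69, adjusted p = 0.140) or dog 3 (adjusted p = 0.0514) and ITGA1 not without dog 3 (log2 fold change -0.71, adjusted p = 0.149) or dog 1 (0.114). Among 12 cytokine receptors 2 rose and 3 fell (median -0.09). IL2RB, the beta chain shared by the interleukin-2 and interleukin-15 receptors, was 1292 ± 259.7 against 709 ± 88.8 CPM (log2 fold change 0.82, SE 0.07, adjusted p = 5.52e-07), and IL12RB2 rose by 0.84. IFNGR1 fell by 0.69 and IL4R by 1.04, the latter not without dog 3 (log2 fold change -1.04, adjusted p = 0.0964), dog 2 (adjusted p = 0.0739) or dog 4 (0.0813). Of 5 tested genes on the MHC class II list 1 fell, CD74, by 0.21, which passed in no fit without a dog (adjusted p from 0.0782 to 0.191). DLA-DOA, a class II gene not on that list, was 23.4, 3.13, 5.54 and 4.94 CPM against 28.8, 27.4, 30.7 and 16.1 CPM (log2 fold change -1.87, SE 0.34, adjusted p = 0.00260), lower in each dog and called without each dog in turn. None of 6 cell cycle genes passed (median 0.56). MKI67 was 179.6, 21.9, 96.0 and 65.9 CPM against 35.8, 44.0, 26.7 and 40.1 CPM (adjusted p = 0.0783) and passed without dog 2 (log2 fold change 1.45, adjusted p = 0.00124), the dog in which it was lower than in the other cells. Of 67 called genes from the lists and the ranking by size in this comparison, 48 were called without each dog in turn.

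Outside these lists, among genes that moved the same way in each dog and reached a mean of 20 CPM on the higher side, the largest rises were in FGD4 (21.5 ± 7.94 against 3.50 ± 1.91 CPM, log2 fold change 2.53, SE 0.31, adjusted p = 6.43e-05), an exchange factor for the GTPase CDC42, PON2 (27.7 ± 12 against 5.29 ± 3.50 CPM, log2 fold change 2.35), an intracellular lactonase, and TNS3 (20.3 ± 8.94 against 4.63 ± 2.44 CPM, 2.11), a focal adhesion adaptor. FES, a tyrosine kinase known from myeloid cells, was 78.1, 57.8, 83.1 and 87.4 CPM against 37.7, 25.5, 18.7 and 38.0 CPM (log2 fold change 1.36, SE 0.16, adjusted p = 5.30e-05). It lay above every value of the other CD8A+ CD4- cells, which were summed over their classes. This contrast does not show whether FES was higher than in the FCER1G+ GZMB- cells alone. Rises also passed for NUGGC (1.53), VTCN1 (1.33), the lysosomal sulfatase ARSG (1.27) and TNFRSF13C (1.26), the receptor of the B cell survival factor BAFF. NUGGC was not called without dog 1 (log2 fold change 1.32, adjusted p = 0.0907), nor VTCN1 without dog 4 (log2 fold change 0.99, adjusted p = 0.152) or dog 2 (adjusted p = 0.0619). The largest falls outside the lists were in UCHL1 (-2.02), a ubiquitin hydrolase, JAML (-1.93), a junctional adhesion molecule, GALNT17 (-1.91), a glycosyltransferase, DLA-DOA (-1.87), CSTA (-1.86), CHD3 (-1.60) and RGS10 (-1.5). CHD3, a chromatin remodeller, was 21.9 ± 5.01 against 66.3 ± 7.87 CPM and its groups were separate. Of all tested genes, 4.81% had each dog's FCER1G+ GZMB+ value above all 4 other values and 3.12% had each below.

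**Figure D3:**
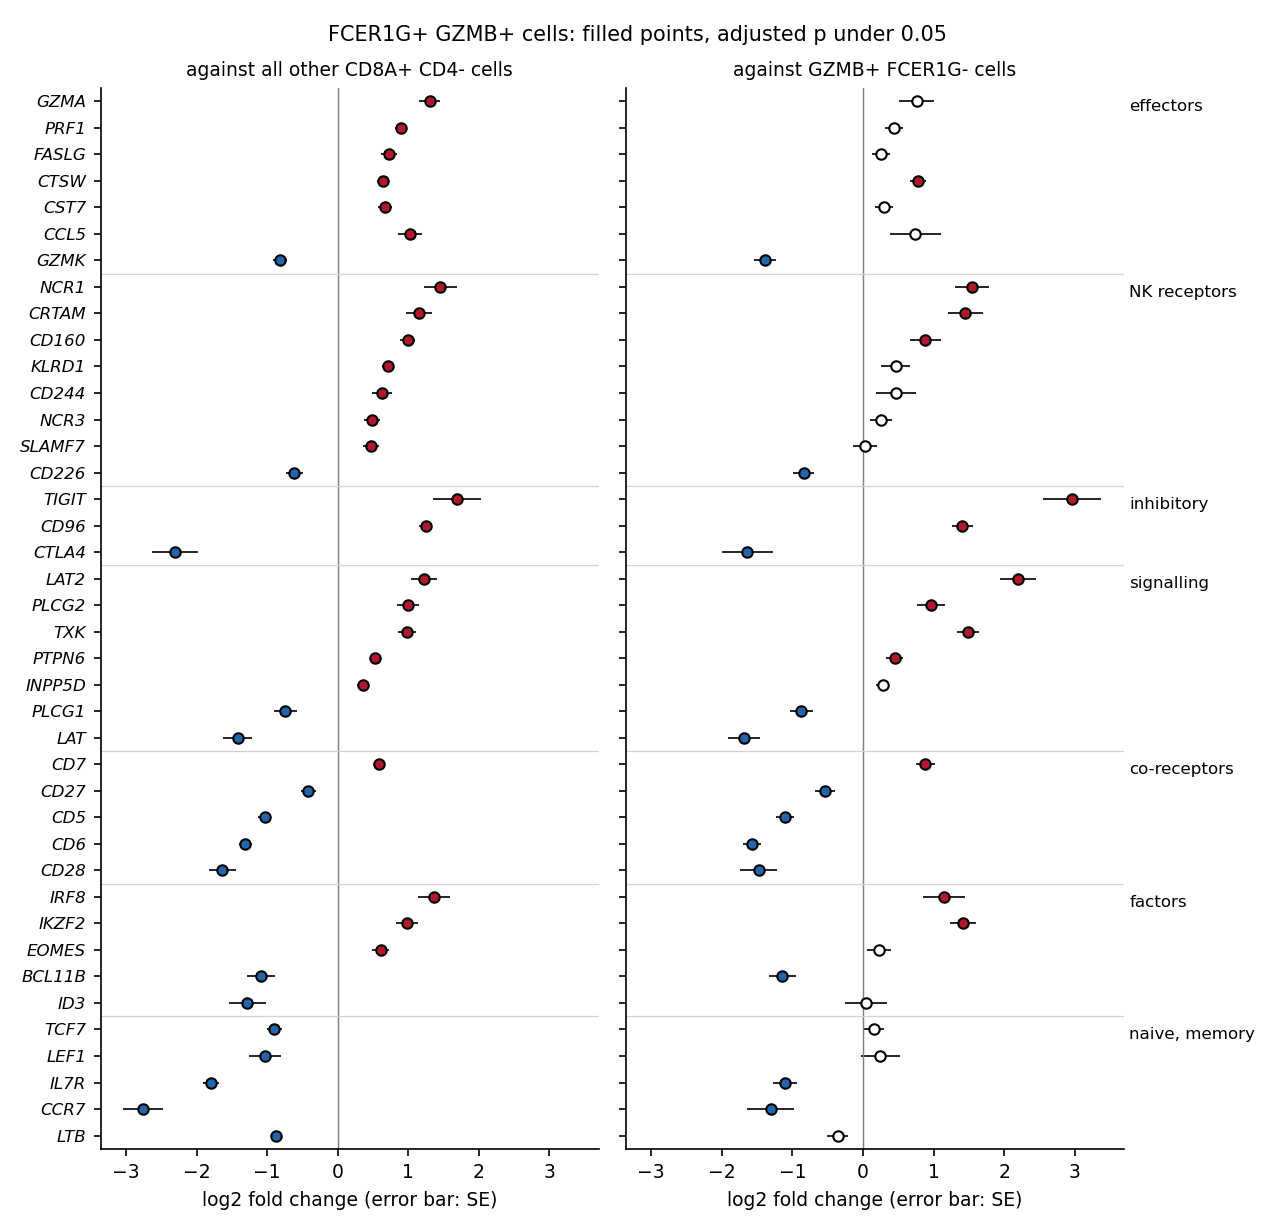
Log2 fold change with its standard error (horizontal axes) of named genes, grouped by role, for the FCER1G+ GZMB+ cells against all other CD8A+ CD4- cells (left) and against the GZMB+ FCER1G- cells (right), from edgeR fits over 4 dogs. LAT2 and LAT lie on opposite sides of 0 in both panels (1.22 and -1.42, then 2.20 and -1.69), while GZMA and PRF1 lie closer to 0 on the right (0.76 and 0.44) than on the left (1.30 and 0.90).

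The second comparison kept to GZMB+ cells and asked what differed with FCER1G, setting the FCER1G+ GZMB+ cells against the GZMB+ FCER1G- cells. These classes also had unlike GZMB levels, 1782 against 2612 CPM with UMIs of all dogs summed, which was not tested. Few cytotoxic genes were called here, while LAT2 and TXK were again higher and LAT and CD6 again lower. Of 7066 genes tested in 1 fit of 5 classes, 209 differed (2.96%), 109 higher (1.54%) and 100 lower (1.42%). This comparison and the 2 that follow use the same FCER1G+ GZMB+ cells as the first, so their results are not independent of it or of each other.

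LAT2 was 42.9, 31.3, 33.2 and 53.6 CPM in dogs 1 to 4 against 9.06, 7.31, 10.5 and 8.35 CPM (log2 fold change 2.20, SE 0.25, adjusted p = 1.06e-06), TXK 109 ± 13.1 against 38.5 ± 8.82 CPM (log2 fold change 1.49, SE 0.15, adjusted p = 2.34e-07) and LAT 21.5 ± 13.8 against 68.9 ± 3.27 CPM (log2 fold change -1.69, SE 0.23, adjusted p = 1.39e-05). In total 4 of 13 signalling genes rose, also PLCG2 (0.97) and PTPN6 (0.45), and 2 fell, also PLCG1 (-0.87). PTPN6 was called in no fit without a dog (adjusted p from 0.0587 to 0.206), nor PLCG1 without dog 4 (log2 fold change -0.77, adjusted p = 0.0634). TIGIT was 15.6, 10.9, 25.8 and 23.9 CPM against 1.29, 3.90, 1.46 and 2.98 CPM (log2 fold change 2.97, SE 0.41, adjusted p = 3.53e-05) and CD96 329 ± 52.3 against 127 ± 39.4 CPM (log2 fold change 1.41, SE 0.15, adjusted p = 3.02e-07), both with separate groups, while CTLA4 and PDCD1, which encodes the inhibitory receptor PD-1, fell (-1.64 and -1.11), neither of them without dog 2 (log2 fold change -1.33, adjusted p = 0.141 and log2 fold change -0.86, adjusted p = 0.0957). Thus 2 of 5 inhibitory receptors rose and 2 fell. TIGIT was higher still in the FCER1G+ GZMB- cells, at 42.1, 54.0, 57.7 and 35.3 CPM in dogs 1 to 4. Of 13 NK receptor genes, NCR1 (34.3 ± 14.5 against 12 ± 2.53 CPM, log2 fold change 1.54, SE 0.23, adjusted p = 7.75e-05), CRTAM (1.45) and CD160 (0.89) rose and CD226 fell (-0.84). CD160 was not called without dog 2 (log2 fold change 0.65, adjusted p = 0.217) or dog 1 (adjusted p = 0.0878), nor CD226 without dog 4 (log2 fold change -0.64, adjusted p = 0.0612).

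Of 13 CD3 complex, CD8 and costimulatory genes 5 fell and 1 rose. CD6 was 183, 179.8, 166 and 157 CPM against 453, 581, 476 and 479.7 CPM (log2 fold change -1.58, SE 0.13, adjusted p = 3.32e-09), and CD5 (-1.10), CD28 (-1.48), CD2 (-0.43) and CD27 (-0.54) were lower as well, CD2 not without dog 2 (log2 fold change -0.34, adjusted p = 0.126) and CD27 not without dog 2 (log2 fold change -0.41, adjusted p = 0.360) or dog 3 (adjusted p = 0.124). CD7 rose by 0.88. Of 17 transcription factors IKZF2 (74.0 ± 21.8 against 29.3 ± 13.8 CPM, log2 fold change 1.42, SE 0.19, adjusted p = 8.09e-06) and IRF8 (1.15) rose and BCL11B fell (-1.14), IRF8 not without dog 4 (log2 fold change 1.24, adjusted p = 0.258) or dog 3 (adjusted p = 0.157). Naive and memory genes fell in 4 of 11 (CCR7, IL7R, CD28 and CD27), with CCR7 not called without dog 3 (log2 fold change -0.88, adjusted p = 0.378) or dog 4 (0.0895), and TCF7 stood at 118 ± 24.6 against 111 ± 26.5 CPM (log2 fold change 0.15, adjusted p = 0.764). Of all tested genes, 4.01% had the 4 FCER1G+ GZMB+ values above all 4 GZMB+ FCER1G- values and 2.28% had them below.

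Of 14 cytotoxic effectors, CTSW rose (583 ± 82.0 against 332 ± 36.5 CPM, log2 fold change 0.78, SE 0.12, adjusted p = 8.39e-05) and GZMK fell (211, 685, 456 and 349 CPM against 701, 1485, 1156 and 982 CPM, log2 fold change -1.39, SE 0.16, adjusted p = 1.06e-06), the latter with no overlap. GZMA (498 ± 241 against 288 ± 184 CPM, log2 fold change 0.76, adjusted p = 0.106) and PRF1 (266 ± 94.2 against 192 ± 76.9 CPM, 0.44, 0.0523) did not pass with all dogs but did without dog 3 (GZMA log2 fold change 1.11, adjusted p = 0.0146, PRF1 log2 fold change 0.48, adjusted p = 0.0397), in which GZMA was lower in the FCER1G+ GZMB+ cells. ITGAM behaved likewise (0.67, adjusted p = 0.152, and log2 fold change 1.14, adjusted p = 0.000526 without dog 3). ZEB2 was 70.2 ± 22.7 against 81.7 ± 38.2 CPM (-0.26, 0.599). CCR9, the gut-homing chemokine receptor, rose (50.8 ± 12.8 against 24.3 ± 4.53 CPM, log2 fold change 1.19, SE 0.20, adjusted p = 0.000288) but not without dog 4 (log2 fold change 0.98, adjusted p = 0.0894). Of 11 cytokine receptors IL2RB rose (0.78) and IL7R and IFNGR1 fell (-1.10 and -0.91). By the same rule of 20 CPM, which TIGIT missed, the largest rises were in TNS3 (4.50), PON2 (3.55), FGD4 (2.85), GCSAM (2.38), which encodes an adaptor known from germinal centre B cells, LAT2 and FES (2.06). The largest falls by that rule were in UCHL1 (-2.31), GALNT17 (-1.72), which was not called without dog 4 (log2 fold change -1.48, adjusted p = 0.13), LAT, CTLA4, CD6 and CHD3 (-1.51). Of 40 called genes from the lists and the ranking, 27 were called without each dog in turn, 125 genes in all were called without dog 2 and 116 without dog 4.

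The third comparison kept to FCER1G+ cells and asked what differed with granzyme B. Against the 426 FCER1G+ GZMB- cells, 5 of 14 effector genes rose in the FCER1G+ GZMB+ cells. Of 17 transcription factors 6 rose and 1 fell, with EOMES, PRDM1, ZEB2 and IRF8 not called without dog 4. Naive and memory genes went both ways, with TCF7, IL7R and LTB lower and CD27 higher, the last not without dog 4. Several genes called in the second comparison were not called in this one, among them LAT, TXK, CD6, CD28, IKZF2, BCL11B, IL2RB and CTSW. None of 5 inhibitory receptors passed, TIGIT and CD96 included. For these genes a difference from the FCER1G+ GZMB- cells was thus not shown. The edgeR fit called 229 of 7066 genes (3.24%), 145 higher (2.05%) and 84 lower (1.19%). The FCER1G+ GZMB- class held 22, 99, 55 and 250 cells in dogs 1 to 4, and 93 genes were called without dog 4, 109 without dog 2 and 133 without dog 3.

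Of 14 effector genes, 5 rose and none fell. GZMA was 472, 471, 231 and 817 CPM in dogs 1 to 4 against 16.8, 72.0, 61.8 and 65 CPM (log2 fold change 3.19, SE 0.37, adjusted p = 3.14e-06), and PRF1 152, 233, 310.2 and 369 CPM against 42.1, 49.5, 128 and 78.9 CPM (log2 fold change 2.01, SE 0.18, adjusted p = 1.65e-08). Neither overlapped. FASLG rose by 1.46 and GZMK by 1.42, so that GZMK, lower than in the GZMB+ FCER1G- cells, was higher than in the FCER1G+ GZMB- cells. RAB27A, which brings granules to the membrane, rose by 0.53 but not without dog 2 (log2 fold change 0.52, adjusted p = 0.0738). CMA1, annotated as mast cell chymase, was 118 ± 37.6 against 30.3 ± 29.6 CPM (log2 fold change 2.24, SE 0.38, adjusted p = 0.000613) and was not called without dog 4 (log2 fold change 1.40, adjusted p = 0.130). Of 17 transcription factors 6 rose and 1 fell. TBX21 (T-bet) was 174 ± 54.9 against 83.9 ± 22.8 CPM (log2 fold change 1.04, SE 0.20, adjusted p = 0.00283), and BHLHE40 was also higher (0.87). EOMES (1.09), PRDM1 (0.89), ZEB2 (0.89) and IRF8 passed with all dogs but not without dog 4 (EOMES log2 fold change 1.01, adjusted p = 0.204, PRDM1 log2 fold change 1.07, adjusted p = 0.110, ZEB2 log2 fold change 0.41, adjusted p = 0.735, IRF8 log2 fold change 3.77, adjusted p = 0.0959). EOMES and PRDM1 were also lost without dog 2 (adjusted p = 0.0955 and 0.101), and ZEB2 and IRF8 without dog 3 (0.0572 and 0.0519). The FCER1G+ GZMB- cells of dogs 1 to 3 had 0, 1 and 0 IRF8 UMIs, so the IRF8 fold without dog 4 is not exact. TOX, a factor of innate lymphoid and chronically stimulated T cells, was lower (114 ± 27.1 against 241 ± 28.2 CPM, log2 fold change -1.0, SE 0.20, adjusted p = 0.00261) with separate groups.

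TCF7 was 93.7, 152, 109 and 116 CPM against 446, 488, 507 and 377 CPM (log2 fold change -1.88, SE 0.15, adjusted p = 1.27e-09), IL7R 125 ± 72.6 against 337 ± 114 CPM (log2 fold change -1.37, SE 0.19, adjusted p = 4.33e-05) and LTB 629 ± 103 against 1232 ± 106 CPM (log2 fold change -1.01, SE 0.15, adjusted p = 0.000198), each lower in every dog with separate groups (all 4 values below in 2.89% of tested genes, and above in 3.40%). LAT2 and CD7, higher in the FCER1G+ GZMB+ cells than in the GZMB+ FCER1G- cells, were lower than in the FCER1G+ GZMB- cells: LAT2 at 40.3 ± 10.2 against 92.3 ± 5.13 CPM (log2 fold change -1.14, SE 0.23, adjusted p = 0.00290) and CD7 at 630.5 ± 26.4 against 1035 ± 123 CPM (log2 fold change -0.74, SE 0.14, adjusted p = 0.00153). Naive and memory genes thus fell in 3 of 11 and rose in 2. Of 13 CD3 complex, CD8 and costimulatory genes CD7 fell and CD27 (0.75) and CD5 (0.77) rose, CD27 not without dog 4 (log2 fold change 0.34, adjusted p = 0.606) and CD5 not without dog 2 (adjusted p = 0.0706), dog 3 (0.0515) or dog 4 (0.134). Of 13 signalling genes LAT2 fell, and FYN (0.50) and PTPRC (0.26) rose, FYN not without dog 2 (adjusted p = 0.0726) or dog 4 (0.0838) and PTPRC not without dog 2 (0.242), dog 3 (0.128) or dog 4 (0.194). Of 23 trafficking genes 6 rose and none fell, led by ADGRG1 (123 ± 32.0 against 25.4 ± 20.7 CPM, log2 fold change 2.01, SE 0.30, adjusted p = 0.000176), an adhesion G protein-coupled receptor of cytotoxic cells, and CX3CR1, the fractalkine receptor (44.0 ± 18.7 against 10.4 ± 10.7 CPM, log2 fold change 1.55, SE 0.31, adjusted p = 0.00313). NK receptor genes rose in 4 of 13 (SH2D1A 1.56, KLRG1 1.19, NCR1 1.18 and SLAMF7 1.06), and without dog 4 KLRG1 (log2 fold change 1.12, adjusted p = 0.186), NCR1 (log2 fold change 0.80, adjusted p = 0.551) and SLAMF7 (log2 fold change 0.71, adjusted p = 0.107) missed the threshold, as NCR1 did without dog 1 (adjusted p = 0.0546) and dog 2 (0.0687). The proliferation gene MKI67 was 179.6, 21.9, 96.0 and 65.9 CPM against 8.42, 4.50, 4.12 and 13.9 CPM (log2 fold change 2.93, SE 0.62, adjusted p = 0.00605), 1 of 4 cell cycle genes tested that rose, and CENPF, a kinetochore gene, rose by 4.12 but not without dog 4 (log2 fold change 3.81, adjusted p = 0.0982). In the FCER1G+ GZMB- cells of dogs 1 to 4 MKI67 had 1, 2, 1 and 15 UMIs and CENPF 1, 0, 1 and 2. Most of these counts lie below the limit of 3 UMIs, so the size of both rises is rough. IL2, the cytokine of activated naive and memory cells, was 5.85 ± 5.34 against 23.0 ± 2.63 CPM (log2 fold change -1.75, SE 0.41, adjusted p = 0.0137) and was not called without dog 4 (log2 fold change -1.78, adjusted p = 0.171) or dog 2 (adjusted p = 0.129). Other large falls were in PSEN2 (-2.08), TMEM238 (-1.87), CDCA7L (-1.68) and USP13 (-1.62), with TMEM238 not called without dog 4 (log2 fold change -1.26, adjusted p = 0.182) and USP13 not without dog 2 (log2 fold change -1.65, adjusted p = 0.0782) or dog 3 (adjusted p = 0.0561). Of 40 called genes from the lists and the ranking by size, 19 were called without each dog in turn.

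The fourth comparison set the FCER1G+ GZMB+ cells against the 361 cells of the same dogs with the same transcripts and a TRAV9-11/TRAJ28 receptor, 61, 110, 167 and 23 in dogs 1 to 4. No effector or NK receptor gene rose in the FCER1G+ GZMB+ cells and some fell, while LAT2, TOX, CD6, TCF7 and the proliferation genes STMN1, CENPF and MKI67 were higher. TXK, ZAP70 and CD27 were lower, but these calls and that of MKI67 were lost without single dogs. Of 7066 genes, 134 differed (1.90%), 70 higher (0.991%) and 64 lower (0.906%). Levels in dog 4 rested on 81833 UMIs, in which 3 UMIs are 36.7 CPM, and 77 genes were called without dog 1, 77 without dog 2 and 88 without dog 3.

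GCSAM, CENPF, NUGGC, FCRL5 and TIGIT had no UMI in the TRAV9-11/TRAJ28 cells of any dog. Against a limit of 3 UMIs over that class (2.35 CPM), with UMIs summed over dogs, they were at least 17.5-fold, 16.6-fold, 11.9-fold, 10.9-fold and 8.68-fold higher in the FCER1G+ GZMB+ cells, a bound that leaves out the counting error of the FCER1G+ GZMB+ cells. The calls of GCSAM and CENPF did not depend on a single dog, whereas NUGGC was not called without dog 1 (adjusted p = 0.0639), FCRL5, an Fc receptor-like protein, not without dog 1 (0.153) or dog 2 (0.270), and TIGIT not without dog 3 (0.0630). CCR9 had 146 UMIs in the FCER1G+ GZMB+ cells and 2 in the TRAV9-11/TRAJ28 cells, a ratio of CPM of 35.2 (exact 95% counting interval 9.57 to 293). MKI67 had 192 and 3 UMIs, a ratio of 30.9 (10.4 to 151), and missed the threshold without dog 3 (adjusted p = 0.0702) and dog 1 (0.0501). STMN1, a tubulin regulator of dividing cells, was 385 ± 137 against 138 ± 60.1 CPM (log2 fold change 1.24, SE 0.19, adjusted p = 0.000227), and thus 2 of 4 cell cycle genes tested rose.

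TOX was 74.2, 128, 124 and 132 CPM against 34.0, 24.4, 21.8 and 61.1 CPM (log2 fold change 1.98, SE 0.32, adjusted p = 0.000466), CD6 172 ± 12.1 against 44.1 ± 13.5 CPM (log2 fold change 1.77, SE 0.22, adjusted p = 1.20e-05), LAT2 40.3 ± 10.2 against 4.69 ± 6.84 CPM (log2 fold change 2.49, SE 0.45, adjusted p = 0.00140), CD7 630.5 ± 26.4 against 312 ± 41.8 CPM (log2 fold change 0.98, SE 0.16, adjusted p = 0.000413), ITGAE, the integrin chain CD103, 114 ± 35.9 against 47.0 ± 10.1 CPM (log2 fold change 1.21, SE 0.21, adjusted p = 0.00136) and TCF7 118 ± 24.6 against 49.5 ± 27.4 CPM (log2 fold change 1.06, SE 0.22, adjusted p = 0.00514). The groups were separate for all 6, as they were, in this direction, for 4.25% of tested genes and, in the other, for 2.09%. CD6 thus lay below its level in the GZMB+ FCER1G- cells and above that in the TRAV9-11/TRAJ28 cells. IL7R rose by 1.05 but not without dog 2 (log2 fold change 0.49, adjusted p = 0.575) or dog 1 (adjusted p = 0.0564). Naive and memory genes rose in 2 of 11 and fell in 2, CD27 among the latter (-0.71), which was not called without dog 1 (adjusted p = 0.132), dog 2 (0.116) or dog 3 (0.108). Of 13 signalling genes LAT2 rose and 2 fell, the kinases TXK (-0.67) and ZAP70 (-0.44). TXK, higher in the first and second comparisons, was 109 ± 13.1 against 169 ± 45.7 CPM here and was not called without dog 1 (adjusted p = 0.120) or dog 2 (0.309), and ZAP70 was called in no fit without a dog (adjusted p from 0.0517 to 0.138). Of 11 cytokine receptors IL7R rose and IL2RB (-0.59) and IL18R1 (-0.90) fell, IL18R1 not without dog 4 (log2 fold change -0.76, adjusted p = 0.152). NK receptor genes fell in 5 of 13 and rose in none (median -0.58). NCR3 (NKp30) was 287 ± 53.7 against 508 ± 125 CPM (log2 fold change -0.89, SE 0.17, adjusted p = 0.00202), KLRG1 141 ± 42.7 against 291 ± 56.0 CPM (log2 fold change -1.15, SE 0.22, adjusted p = 0.00263) and KLRK1 (NKG2D) 352 ± 60.7 against 549.5 ± 79.2 CPM (log2 fold change -0.69, SE 0.13, adjusted p = 0.00202), each with separate groups. SH2D1A and KLRB1 fell by 0.89 and 0.85, SH2D1A not without dog 4 (log2 fold change -0.74, adjusted p = 0.0827) and KLRB1 not without dog 2 (log2 fold change -0.60, adjusted p = 0.211), dog 3 (adjusted p = 0.143) or dog 4 (0.101). Of 14 effector genes PRF1 (-0.55) and GZMK (-0.68) fell, PRF1 not without dog 2 (log2 fold change -0.43, adjusted p = 0.384), dog 1 (adjusted p = 0.160) or dog 4 (0.0629) and GZMK not without dog 1 (log2 fold change -0.50, adjusted p = 0.237), dog 3 (0.0811) or dog 4 (0.153), while GZMA was 498 ± 241 against 572 ± 178 CPM (log2 fold change -0.40, adjusted p = 0.624) and ZEB2 70.2 ± 22.7 against 103 ± 17.5 CPM (-0.70, 0.126). Outside the lists the largest falls by the rule of 20 CPM were in PI3 (-2.07), the elastase inhibitor elafin, IRAK2 (-1.97), a kinase of interleukin-1 and Toll-like receptor signalling, CKAP4 (-1.46), ATXN7L1 (-1.31), RAPGEF5 (-1.23) and VTCN1 (-1.22). Each of these 6 was lost without at least 1 dog: PI3 without dog 4 (log2 fold change -1.13, adjusted p = 0.126), IRAK2 without dog 3 (log2 fold change -1.69, adjusted p = 0.104), CKAP4 and RAPGEF5 without dog 2 (log2 fold change -1.23, adjusted p = 0.0558 and log2 fold change -1.0, adjusted p = 0.0574), and ATXN7L1 and VTCN1 without dog 2 (adjusted p = 0.0798 and 0.398), dog 3 (0.0831 and 0.181) or dog 4 (0.119 and 0.0735). Since 65 FCER1G+ GZMB+ cells were tied to the same kind of receptor, the comparison was repeated without them, and 174 genes differed. With the FCER1G+ GZMB+ cells limited to those that had a TRA record, 265 did. Among cells of 3000 to 6000 UMIs 37 did, and of 32 called genes from the lists and the ranking that could be compared there 21 missed the threshold.

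The receptor rule bears on how many cells had a receptor record. Cells with a detected TRAV9-11/TRAJ28 chain, each of which has a TRA record, were taken out of the FCER1G+ GZMB+ cells and stand among the other CD8A+ CD4- cells, so the shares with a record are given as a description with no test. A TRA record was found in 49.1%, 61.6%, 48.3% and 48.1% of the FCER1G+ GZMB+ cells in dogs 1 to 4 against 76.5%, 75.2%, 73.2% and 70.7% of the other cells, and a TRB record in 76.7% ± 4.50 against 83.8% ± 2.18. With the TRAV9-11/TRAJ28 cells put back, a division chosen after seeing the data, a TRA record was found in 75.4%, 77.8%, 78.4% and 51.9% of all CD8A+ CD4- cells with FCER1G and GZMB, against 74.0%, 72.8%, 70.9% and 70.3% of all others. The share was then higher in dogs 1 to 3 and lower in dog 4. The TRB shares on that division were 83.4% ± 5.55 and 83.0% ± 2.05. In the TRBV1/TRBJ2-3 clone of dog 4, 2 of 77 cells had a TRA record, and without that clone 64.4% of the FCER1G+ GZMB+ cells of dog 4 had one. More than 1 TRA was recorded in 6.25%, 5.0%, 4.76% and 42.0% of the FCER1G+ GZMB- cells with TRA in dogs 1 to 4. In the FCER1G+ GZMB+ cells with TRA it was recorded in 10.3% ± 6.87 against 7.28% ± 2.61 of the other CD8A+ CD4- cells, higher in each dog, again without a test. More than 1 TRB was recorded in 8.66% ± 10.1 of cells with TRB against 3.69% ± 1.49 (higher in 3 of 4 dogs, exact two-sided sign-change permutation p = 0.500, where the smallest p that 4 dogs allow rounds to 0.13, and 0.500 after adjustment over the 8 receptor features for which it was computed, those given here without a test included). In dog 2, 25 of 108 cells with TRB had more than 1, and 21 of these carried the TRBV10/TRBJ1-6 and TRBV1/TRBJ2-6 pair shown above.

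FCER1G+ GZMB+ cells with a single TRB numbered 47, 83, 87 and 210 in dogs 1 to 4 and held 25, 52, 50 and 57 different TRB junctions. The largest clone of such cells took 21.3%, 14.5%, 16.1% and 36.7% of them, and the 3 largest together 38.3%, 32.5%, 32.2% and 55.7%. These shares and the chance given below leave out 21 dog 2 cells with the TRBV10/TRBJ1-6 and TRBV1/TRBJ2-6 pair. Of 108 dog 2 cells with a TRB, 31 carried either or both of these junctions. Among the other CD8A+ CD4- cells without TRAV9-11/TRAJ28, the largest clone took 5.45%, 7.19%, 9.60% and 7.22%. These shares were higher in the FCER1G+ GZMB+ cells in each dog, but the other cells with a single TRB were more numerous, 385, 835, 1521 and 1316 in dogs 1 to 4. The chance that 2 cells drawn from the same group shared a clone, which does not rest on the number of cells, was 6.20%, 3.82%, 4.20% and 15.7% in the FCER1G+ GZMB+ cells of dogs 1 to 4 against 0.732%, 1.23%, 2.54% and 1.29% in the others, likewise higher in each dog. The others mix several classes. Of the FCER1G+ GZMB- cells with a single TRB, the TRBV3-1/TRBJ2-1 clone held 95 of 196 in dog 4. The TRBV26/TRBJ1-6 clone held 17 of 81 in dog 2. Large clones were thus not particular to the FCER1G+ GZMB+ cells in these dogs, and no such count is given for dogs 1 and 3. Cells in a TRB clone of at least 2 kept cells made up 70.8% ± 12.7 of the FCER1G+ GZMB+ cells, 65.2% ± 13.1 of all other CD8A+ CD4- cells (higher in 3 of 4 dogs, exact permutation p = 0.375, adjusted 0.500) and 79.0% ± 8.86 of the GZMB+ FCER1G- cells. The difference from the other CD8A+ CD4- cells was 5.68 ± 11.1 percentage points (mean ± SD, n = 4), within the spread between dogs. With clones defined by TRA and TRB together the order was turned, at 58.6% ± 6.57 against 63.4% ± 12 (higher in 2 of 4 dogs, exact permutation p = 0.500, adjusted 0.500).

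**Figure D4:**
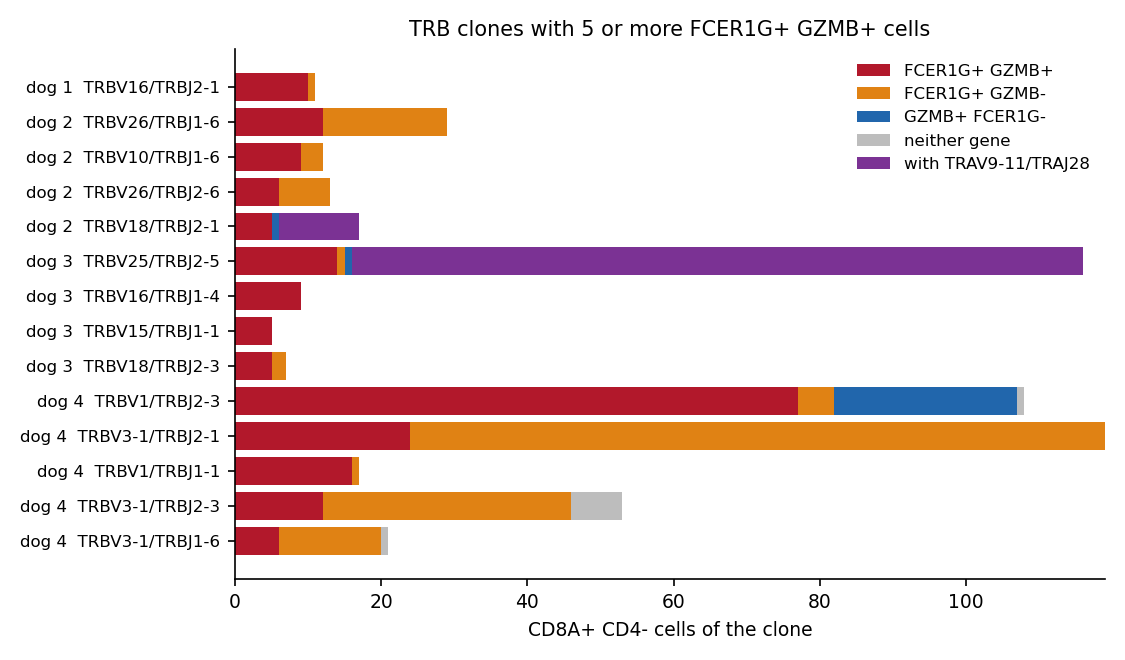
Number of CD8A+ CD4- cells (horizontal axis) in each TRB clone with at least 5 FCER1G+ GZMB+ cells (vertical axis, by dog and V and J gene), divided by class. The TRBV1/TRBJ2-3 clone of dog 4 is mostly FCER1G+ GZMB+ (77 of 108), the TRBV3-1/TRBJ2-1 clone of dog 4 mostly FCER1G+ GZMB- (95 of 119), and the TRBV25/TRBJ2-5 clone of dog 3 mostly TRAV9-11/TRAJ28 cells (100 of 116).

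Clones with many FCER1G+ GZMB+ cells also held cells of other classes. The TRBV1/TRBJ2-3 clone of dog 4 had 108 CD8A+ CD4- cells, of which 77 were FCER1G+ GZMB+, 25 GZMB+ FCER1G-, 5 FCER1G+ GZMB- and 1 neither. The TRBV3-1/TRBJ2-1 clone of dog 4 had 119, all with FCER1G, of which 24 had GZMB. The TRBV26/TRBJ1-6 clone of dog 2 had 29, all with FCER1G, of which 12 had GZMB. In contrast, 10 of 11 cells of the TRBV16/TRBJ2-1 clone of dog 1, 9 of 9 of the TRBV16/TRBJ1-4 clone of dog 3 and 16 of 17 of the TRBV1/TRBJ1-1 clone of dog 4 had both transcripts. Most CD8A+ CD4- cells carried TRAV9-11/TRAJ28 in the TRBV25/TRBJ2-5 clone of dog 3 (100 of 116) and the TRBV18/TRBJ2-1 clone of dog 2 (11 of 17).

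FCER1G fell into clones nearly by presence or absence. TRAV9-11/TRAJ28 cells were left out here, and 65 clones had at least 10 other CD8A+ CD4- cells, 1855 cells in all. FCER1G was seen in 69.2% to 100% of the cells of 13 clones and in 25.0% of 1 clone. In the other 51 it was seen in at most 9.09%, and 43 of these had none. Among the 13 was the TRBV25/TRBJ2-5 clone of dog 3. It had 16 counted cells, 14 of them FCER1G+ GZMB+, beside its 100 TRAV9-11/TRAJ28 cells. The 13 clones held 194 FCER1G+ GZMB+ cells, the middle clone 1 and the 51 clones 8. They came from all 4 dogs, with 2, 3, 2 and 6 in dogs 1 to 4. GZMB was seen in at least 50% of cells in 6 of the 13 clones and in 38 of the 51. FCER1G had been used to choose the cells, so these shares are a description.

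**Figure D5:**
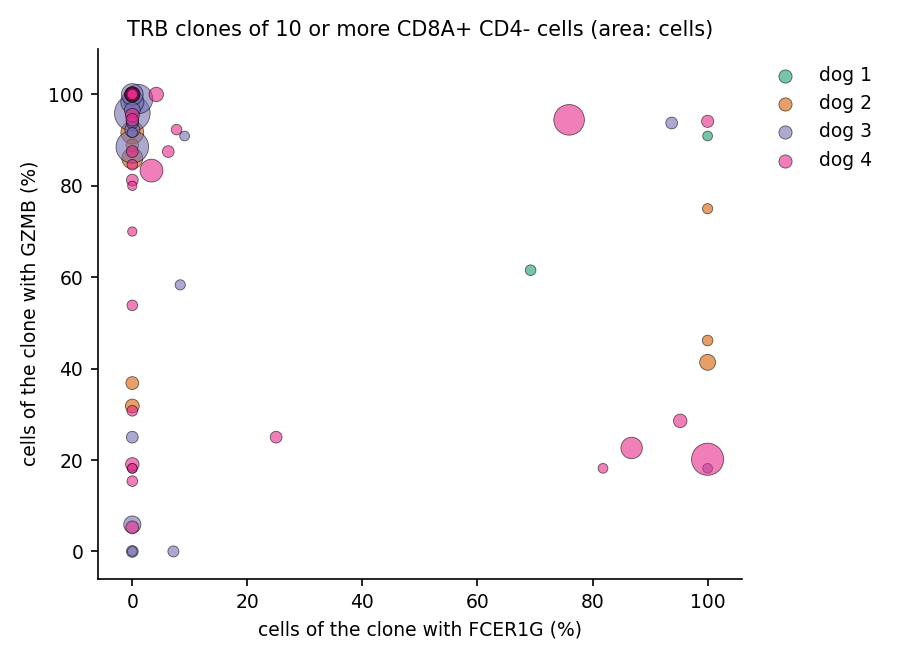
Percent of cells with an FCER1G UMI (horizontal axis) against percent with a GZMB UMI (vertical axis) for 65 TRB clones. Each clone had at least 10 CD8A+ CD4- cells after TRAV9-11/TRAJ28 cells were left out. Points are coloured by dog, with area by the number of cells counted. The 13 clones at the right lie at 69.2% FCER1G or more and the 51 at the left at 9.09% or less, with 1 between at 25.0%, and both sides span low and high GZMB.

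Cells of the same clones that had neither a CD8A nor a CD4 UMI had played no part in the choice. In clones with at least 2 FCER1G+ GZMB+ cells there were 17 such cells without a TRAV9-11/TRAJ28 chain, to which all counts here are limited, and FCER1G was seen in 16 of them (94.1%). In clones with at least 2 GZMB+ FCER1G- cells and no FCER1G+ GZMB+ cell it was seen in 1 of 84 (1.19%), and in all other clones in 58 of 7683 (0.755%). By dog, the 16 were 0 of 0, 2 of 2, 2 of 2 and 12 of 13 in dogs 1 to 4, so the count rests mainly on dog 4, where 9 of the 13 cells belonged to the TRBV3-1/TRBJ2-1 clone. GZMB in the same cells was seen in 5 of 17 (29.4%), 21 of 84 (25.0%) and 221 of 7683 (2.88%). No test was made across these cells, which share clones and libraries.

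Clones with FCER1G+ GZMB+ cells had unlike levels of other genes. In the 77 cells of the TRBV1/TRBJ2-3 clone of dog 4, GZMA stood at 1546 CPM, PRF1 at 676 CPM, ITGAM at 1054 CPM, CD5 at 114 CPM, TCF7 at 51.4 CPM and TOX at 51.4 CPM. In the 24 cells of the TRBV3-1/TRBJ2-1 clone of the same dog, GZMA stood at 54.5 CPM, PRF1 at 45.4 CPM, ITGAM at 36.3 CPM, TCF7 at 345 CPM and TOX at 354 CPM, and CD5 and GZMK had no UMI, which allows up to 27.2 CPM by a limit of 3 UMIs. The 12 cells of the TRBV26/TRBJ1-6 clone of dog 2 had TCF7 at 547 CPM, TOX at 435 CPM, IL7R at 716 CPM, CD160 at 659.6 CPM and no UMI of GZMA, GZMK or CD5 (limit 42.1 CPM). The remaining 139 cells of dog 2 had GZMA at 530 CPM, TCF7 at 102 CPM and TOX at 89.7 CPM. GZMB itself was 2985 CPM, 499 CPM and 253 CPM in the 3 clones in the order given. These levels are sums over the cells of 1 clone in 1 dog, with no replicate. With the largest clone of single-TRB cells of each dog left out (10, 12, 14 and 77 cells), 303 genes differed from the other CD8A+ CD4- cells, and the dog 2 cells with the TRBV10/TRBJ1-6 and TRBV1/TRBJ2-6 pair stayed in.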

How the data were processed

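Gene expression and V(D)J libraries of sorted blood TCRαβ+ T cells of 4 dogs were used. The authors deposited unnormalized UMI counts (genes by barcodes), made with Cell Ranger 5.0.1 against CanFam 3.1, and lists of productive TRA and TRB rearrangements, whose junction lengths are other values read per the file headers. The gene list of dog 1 (27980 lines for 20257 genes) could not be joined to its matrix, so that of dog 2 was used. Cells with 500 to 20000 UMIs and at most 10% mitochondrial UMIs were kept, 7096, 8454, 8109 and 8250 in dogs 1 to 4, with medians of 3599, 3932, 3795 and 3847 UMIs. UMI counts were summed per dog and class, and edgeR 4.0.16 in R 4.3.3 (quasi-likelihood test, TMM, filter on low counts, Benjamini-Hochberg adjustment over all tested genes, threshold 0.05) was run with the dog as a block, on 2 classes for the first comparison and on 5 classes together for the others. DESeq2 1.42.0 was an alternative. Levels are CPM, means ± SD over 4 dogs. The exact sign-change permutation test, two-sided, was used for receptor features. On simulated data for the first comparison (8194 genes), 78% of 2-fold and 96.9% of 4-fold changes were recovered, with 5 false calls.

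The same dogs entered each class, and samples of a dog deviated together in every comparison (correlations of 0.118 to 0.402 with the same dog, negative with other dogs). Named genes were those of fixed lists and, beyond them, the 12 highest and 12 lowest called genes of the first comparison (6 and 6 of the others) with the same direction in each dog that reached 20 CPM. Genes without symbol, receptor segments, mitochondrial genes and the 4 genes of the rule were left out of that ranking. KLRF1, SH2D1B, BANK1 and S100A8 were taken from marker lists. Some listed genes are counted with their list but not reported here by name. Members and lists were chosen with earlier results of these data known. The filter, the normalization, the block, the cell depth, the receptor rules and single dogs were varied. Receptor gene names are those of the deposited records.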

Additional observations from a re-analysis of the deposited data

Results flagged for a closer look

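In 17 of 152 groups of 4 dogs (11.2%), 1 dog stood farther from the others than Dixon's 95% critical value allows, where chance gives about 5%. No explanation was tested for any of them. Dog 4 stood apart in the FCER1G+ GZMB+ cells for more than 1 TRA (20.6% of cells with TRA, against 6.45% to 7.14%), ITGAM (598 CPM, against 203 to 258), ZEB2 (104 CPM, against 54.7 to 62.8) and TXK (89.0 CPM, against 113 to 116). In its other CD8A+ CD4- cells it stood apart for more than 1 TRA (11.2%), CCR7 (23.8 CPM, against 70.8 to 76.6), IRF8 (27.4 CPM, against 7.48 to 9.33) and LAT2 (23.4 CPM, against 13.2 to 14.6). Dog 1 stood apart in the FCER1G+ GZMB+ cells for DLA-DOA (23.4 CPM, against 3.13 to 5.54) and RGS10 (11.7 CPM, against 23.5 to 25.8), where 3 UMIs are 11.7 CPM. In its other CD8A+ CD4- cells it stood apart for the share with a TRA or TRB record (90.1%), CD6 (357 CPM), IFNGR1 (82.8 CPM), ITGA1 (51.7 CPM) and S100A8 (926 CPM, against 1829 to 1982). In the FCER1G+ GZMB+ cells dog 2 stood apart for the share with a TRA record (61.6%, against 48.1% to 49.1%) and dog 3 for CST7 (194 CPM, against 164 in each other dog).

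In the V(D)J data, 59 TRB rearrangements with identical nucleotides were found in both dog 1 and dog 4, against 0 or 1 for other pairs of dogs. Of the FCER1G+ GZMB+ cells with a TRB, 47.8% in dog 4 and 8.51% in dog 1 carried one of them, against 17.5% and 1.35% of all kept cells with a TRB. The shares were 32.7% and 4.68% of all CD8A+ CD4- cells with a TRB. In the FCER1G+ GZMB- cells with a TRB they were 46.8% in dog 4 and 19.0% (4 of 21) in dog 1. How the rearrangements came to be in both libraries was not tested.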

How the results depend on the processing

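Without the replicate block for the dog, 72 genes differed from all other CD8A+ CD4- cells in place of 343, 71 from the GZMB+ FCER1G- cells in place of 209, 44 from the FCER1G+ GZMB- cells in place of 229 and 52 from the TRAV9-11/TRAJ28 cells in place of 134. Without the filter on low counts the same comparisons gave 568, 377, 370 and 304 genes, with more genes tested. DESeq2 gave 223 in the first, and 159, 198 and 124 in the others. Of the named calls of the 4 comparisons in order, DESeq2 lost 10 of 67, 6 of 40, 5 of 40 and 6 of 35. Among cells of 3000 to 6000 UMIs 10 of 66, 4 of 38, 4 of 37 and 21 of 32 were lost. Requiring 2 UMIs of FCER1G and GZMB lost 6 of 67 in the first. Without the cells tied to TRAV9-11/TRAJ28, 4 of 67, 0 of 40, 5 of 40 and 0 of 35 were lost. Leaving out 1 dog at a time gave 190 to 286, 116 to 207, 93 to 180 and 77 to 114 genes, with fewer samples. In the comparison with TRAV9-11/TRAJ28 cells, 37 genes differed among cells of 3000 to 6000 UMIs and 265 with the FCER1G+ GZMB+ cells limited to those with a TRA record, and the cause was not tested. The share of FCER1G+ GZMB+ cells ranged from 8.03% to 11.1% and their share in expanded TRB clones from 64.9% to 74.8% without single dogs. Of 2541 values of 192 named results under alternatives, 2192 kept their direction and their side of the threshold, 330 fell below it, 19 passed it and 0 reversed. Leaving out dog 1 cells with a TRB of dog 4, or cells tied to the TRAV9-11/TRAJ28 receptor, were alternatives chosen after seeing the data. At a median of 3618 UMIs per cell, a cell without a UMI of FCER1G or GZMB cannot be called negative for it, and the smallest exact p for 4 dogs was 0.13.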

Other observations

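V and J gene use of the FCER1G+ GZMB+ cells was compared with that of other CD8A+ CD4- cells without TRAV9-11/TRAJ28, as a description over 4 dogs. Among cells with TRA, TRAV24 was used by 19.1% ± 14.4 against 11.9% ± 5.4, higher in 3 of 4 dogs, with 37.6% in dog 2, where it was the V gene of all 30 cells that had an alpha chain and the TRBV10/TRBJ1-6 or TRBV1/TRBJ2-6 junction. TRAV9-6 was used by 6.7% ± 7.7 against 14.6% ± 6.1, lower in each dog. Among cells with TRB, TRBV28 was used by 11.7% ± 5.8 against 4.9% ± 3.6, higher in 3 of 4 dogs, TRBV7 by 4.5% ± 2.4 against 11.8% ± 2.8 and TRBV3-2 by 0.7% ± 0.9 against 4.1% ± 2.3, the last 2 lower in each dog. TRAJ28 was used by 7.1%, 21.5%, 22.4% and 2.1% of FCER1G+ GZMB+ cells in dogs 1 to 4 against 9.9%, 5.0%, 6.5% and 3.2%. TRA junctions of 16 codons, the length of the TRAV9-11/TRAJ28 junction, made up 6.67%, 16.2%, 40.3% and 13.5% of TRA records against 10.8%, 8.24%, 8.27% and 5.22%. TRAV9-11 itself was also joined to other J genes in these cells, to TRAJ20 in 9 and TRAJ49 in 7 cells of dog 4 and to TRAJ31 in 4 cells of dog 1.

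Ribosomal protein genes fell in 10 of 54 tested in the comparison with all other CD8A+ CD4- cells (median log2 fold change -0.17) and in 8 of 54 in that with the FCER1G+ GZMB- cells, and in 0 of 54 in that with the GZMB+ FCER1G- cells by edgeR. Reads of such genes can be shared with near-identical copies. Among cells without the TRAV9-11/TRAJ28 receptor, GZMB was seen in 72.2%, 60.4%, 68.6% and 54.0% of CD8A+ CD4- cells with FCER1G in dogs 1 to 4 and in 39.9%, 47.7%, 61.5% and 65.7% of those without it, so the order was turned in dog 4. Of the 343 genes called in the comparison with all other CD8A+ CD4- cells, 39 have no symbol in the gene list and are not named here.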
